A study of Mus musculus with 19 samples.

Results

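The 8 genes described here hold back the passage from G1 into S phase and were followed across mouse pluripotent and reprogrammed cells that lacked the miR-290 cluster, the miR-302 cluster or both. The genes were the CDK inhibitors Cdkn1a, Cdkn1b, Cdkn2a, Cdkn2b and Cdkn2c and the pocket protein genes Rb1, Rbl1 and Rbl2. They were chosen by name, as known or likely targets of the seed that the clusters share and their relatives in cell-cycle control, and all 8 had a row among the 12778 genes of the expression matrix. Polyadenylated RNA was sequenced from its 3' end (QuantSeq) in 19 libraries of 6 groups. Induced pluripotent stem cells (iPSC) had been made from mouse embryonic fibroblasts (MEF) with Oct4, Sox2 and Klf4 and were collected more than 18 passages later, and embryonic stem cells (ESC) came without reprogramming; every group was grown in LIF and serum (FBS). WT iPSC had 3 libraries. The knockout (KO) iPSC groups miR-290KO, miR-302KO and miR-290KO;miR-302KO, the last called double KO here, had 4 libraries each, from 2 colonies with 2 libraries per colony. ESC with miR-290KO and ESC with miR-302KO had 2 libraries each, and WT ESC were not analysed here. The colonies were derived independently, but the submitters except the WT iPSC from that statement, so the 3 WT libraries may stand for 1 derivation and p-values against WT may then reflect too small a spread. With 2 colonies per KO group, each group rests on 2 derivations.

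Entry into S phase is driven by cyclin D with Cdk4 or Cdk6 and by cyclin E with Cdk2, which phosphorylate the pocket proteins and so release E2F transcription factors. The Cip/Kip inhibitors p21 (Cdkn1a) and p27 (Cdkn1b) bind cyclin E-Cdk2 complexes, while the INK4 inhibitors p16 (Cdkn2a), p15 (Cdkn2b) and p18 (Cdkn2c) bind Cdk4 and Cdk6. Mouse pluripotent cells are known for a short G1 phase with high Cdk2 activity, and miRNAs of the miR-290 and miR-302 families are known to repress Cdkn1a and other inhibitors of the G1-S transition there.

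The sequences below show what the clusters share and where the genes carry a match to it. Of 24 mature miRNAs of the clusters found in RefSeq (GRCm38.p6), 5 had the seed (bases 2 to 8, in capitals) AAGUGCU. Of these, 3 lie in the miR-290 cluster on chromosome 7 and 2 in the miR-302 cluster on chromosome 3. The 24 did not include miR-302a-3p or miR-292a-3p, so these counts may fall short for either cluster. In miR-302c-3p the same letters start 1 base earlier, so its bases 2 to 8 read AGUGCUU.
miR-291a-3p, chr7:3218968-3218989, plus strand: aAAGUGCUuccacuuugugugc
miR-294-3p, chr7:3220691-3220712, plus strand: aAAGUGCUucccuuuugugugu
miR-295-3p, chr7:3220815-3220837, plus strand: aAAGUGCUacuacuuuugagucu
miR-302b-3p, chr3:127545275-127545297, plus strand: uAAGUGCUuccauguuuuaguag
miR-302d-3p, chr3:127545665-127545687, plus strand: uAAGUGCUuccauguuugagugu

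Matches to this seed were sought in 1 annotated 3' UTR per gene (GENCODE transcripts, GRCm38). The letters searched on the transcript strand were AGCACTT, which pairs with bases 2 to 8 (7mer-m8), the same followed by A (8mer), and GCACTTA without the leading A (7mer-A1). Cdkn1a had 2 matches, Rbl1 and Rbl2 had 1 each, and Cdkn1b, Cdkn2a, Cdkn2b, Cdkn2c and Rb1 had 0 in these windows. In capitals, the matches with up to 11 bases on each side read as follows.
Cdkn1a 7mer-m8, chr17:29099828-29099834, plus strand: cagacctgaatAGCACTTtggaaaaatga
Cdkn1a 8mer, chr17:29100500-29100507, plus strand: gtgggtgtcaaAGCACTTAgtgggtctgac
Rbl1 7mer-m8, chr2:157147478-157147484, minus strand: tgcctgatcaaAGCACTTttggattgttc
Rbl2 8mer, chr8:91123830-91123837, plus strand: tttttcaataaAGCACTTAtaaatta

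The Cdkn1a matches start at bases 435 and 1107 of a 3' UTR of 1334 bases. The Rbl1 match starts at base 22 of 1613. The Rbl2 match starts at base 1384 of 1398, so that 7 bases follow it, and the letters AATAAA of a polyadenylation signal overlap its first base. Among 11839 genes of the matrix with an annotated 3' UTR, 20.7% had at least 1 match and 3.6% had an 8mer. The 3' UTRs of the members without a match ranged from 264 bases in Cdkn2a to 3439 in Cdkn1b. A match is a description of letters, and no match says only that they are not in this window.

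**Figure D1:**
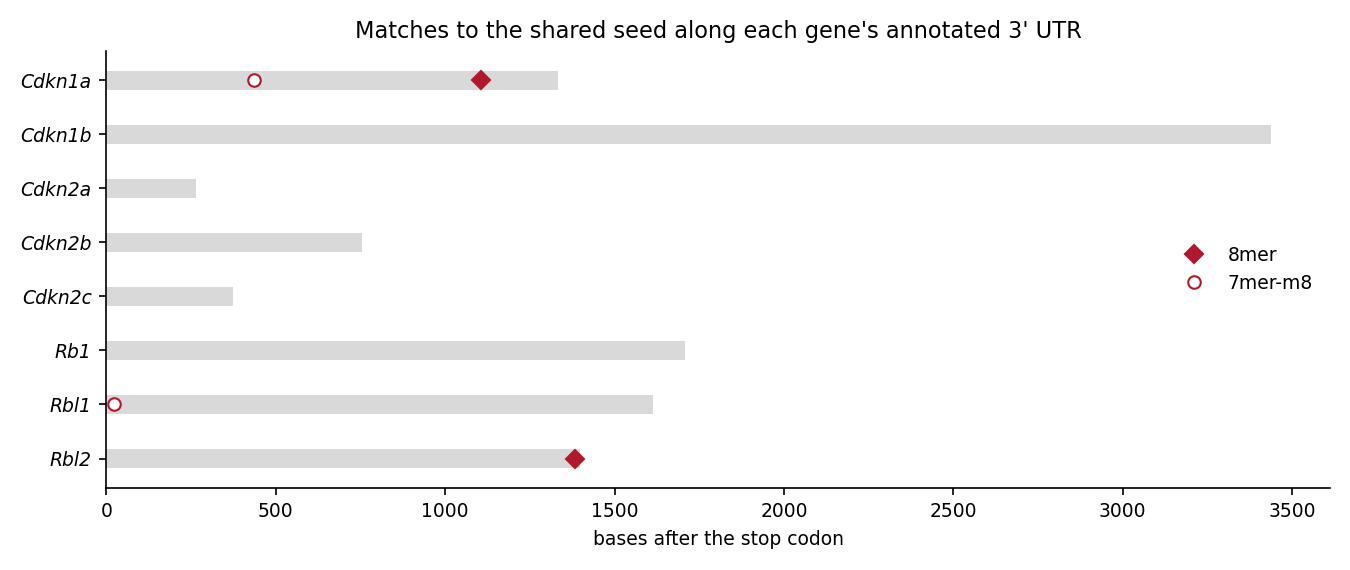
Grey bars show the length of the annotated 3' UTR of each gene, in bases after the stop codon, and symbols mark matches to the shared seed (filled diamonds, 8mer; open circles, 7mer-m8). Cdkn1a has 2 matches, Rbl1 has 1 close to the stop codon and Rbl2 has 1 close to the 3' end.

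Levels are given as CPM, reads scaled to library size, from reads recovered from the deposited log2 values. Between 6435997 and 24974510 reads were recovered per library, with a median of 17459410. The labels gave no sequencing date or batch. In 1 library, colony 1 library 2 of the miR-302KO iPSC, the 20 most abundant genes took 17.1% of reads against 8.6% to 13.5% in the other 18 libraries, and its mean correlation with its group was 0.852 against 0.904 or more. The labelled cell type was checked with 8 markers of pluripotent cells (Pou5f1, Nanog, Sox2, Esrrb, Zfp42, Tfcp2l1, Tdgf1 and Utf1). Their summed level was between 2596.4 and 4175.7 CPM in the other 15 libraries but between 53.7 and 97.4 CPM in the 4 double KO libraries, where Pou5f1 averaged 24.8 CPM and Nanog 2.38 CPM. All 8 markers fell in double KO against WT. The double KO cells, labelled iPSC, thus had few transcripts of the genes that define that cell type, and a direct effect of losing the miRNAs cannot be told apart from a different cell state in any comparison with them. Markers of other cell types were summed as well. The summed level of the 4 measured fibroblast genes of 10 listed was 4.1 to 42.5 CPM in double KO and 6.6 to 8.9 CPM in WT. Only Fbln2 among them was higher, and Gata4 of endoderm was at 0 in double KO. The summed level of the 5 mesoderm genes was 21.3 to 31.3 CPM in double KO, above the 17.4 to 20.9 CPM of WT. It was 21.6 to 41.8 CPM in miR-290KO iPSC and 12.4 to 38.8 CPM in miR-302KO iPSC. In double KO against WT 1 of the 5, Kdr, rose from an average of 0.05 to 12.9 CPM while 2 fell. The summed level of the 4 measured neural genes of 5 listed was 75.6 to 104.1 CPM in double KO and 27.0 to 67.9 CPM in WT. In double KO this range overlapped that of the pluripotency markers. The neural sum was 83.0 to 228.7 CPM in miR-290KO iPSC and 39.3 to 72.2 CPM in miR-302KO iPSC. In double KO against WT 1 of the 4 rose, Sox1, to an average of 63.1 CPM, and 2 fell. The part of these markers in the results was not tested.

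All 8 genes rose in double KO iPSC against WT iPSC, with a median log2 fold change of 2.46 beside 0.16 over all genes. A gene was called when its limma p, adjusted by Benjamini-Hochberg over all 12778 genes, was under 0.05, and 27.4% of all genes were called higher in this comparison. The mean level was 2.29 times WT in Rbl1, 2.64 times in Cdkn1b, 3.83 times in Cdkn2b, 4.55 times in Cdkn1a, 6.8 times in Rbl2, 7.30 times in Rb1, 9.41 times in Cdkn2a and 65.2 times in Cdkn2c, where WT rests on 22 reads. In 6 of the 8 genes every double KO library lay above every one of the other 15 libraries, which was so for 19.9% of 12239 genes with recovered reads. The exceptions were Cdkn1b and Cdkn2b. In these bulk samples, more cells that express a gene and more RNA of it per cell cannot be told apart.

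**Figure D2:**
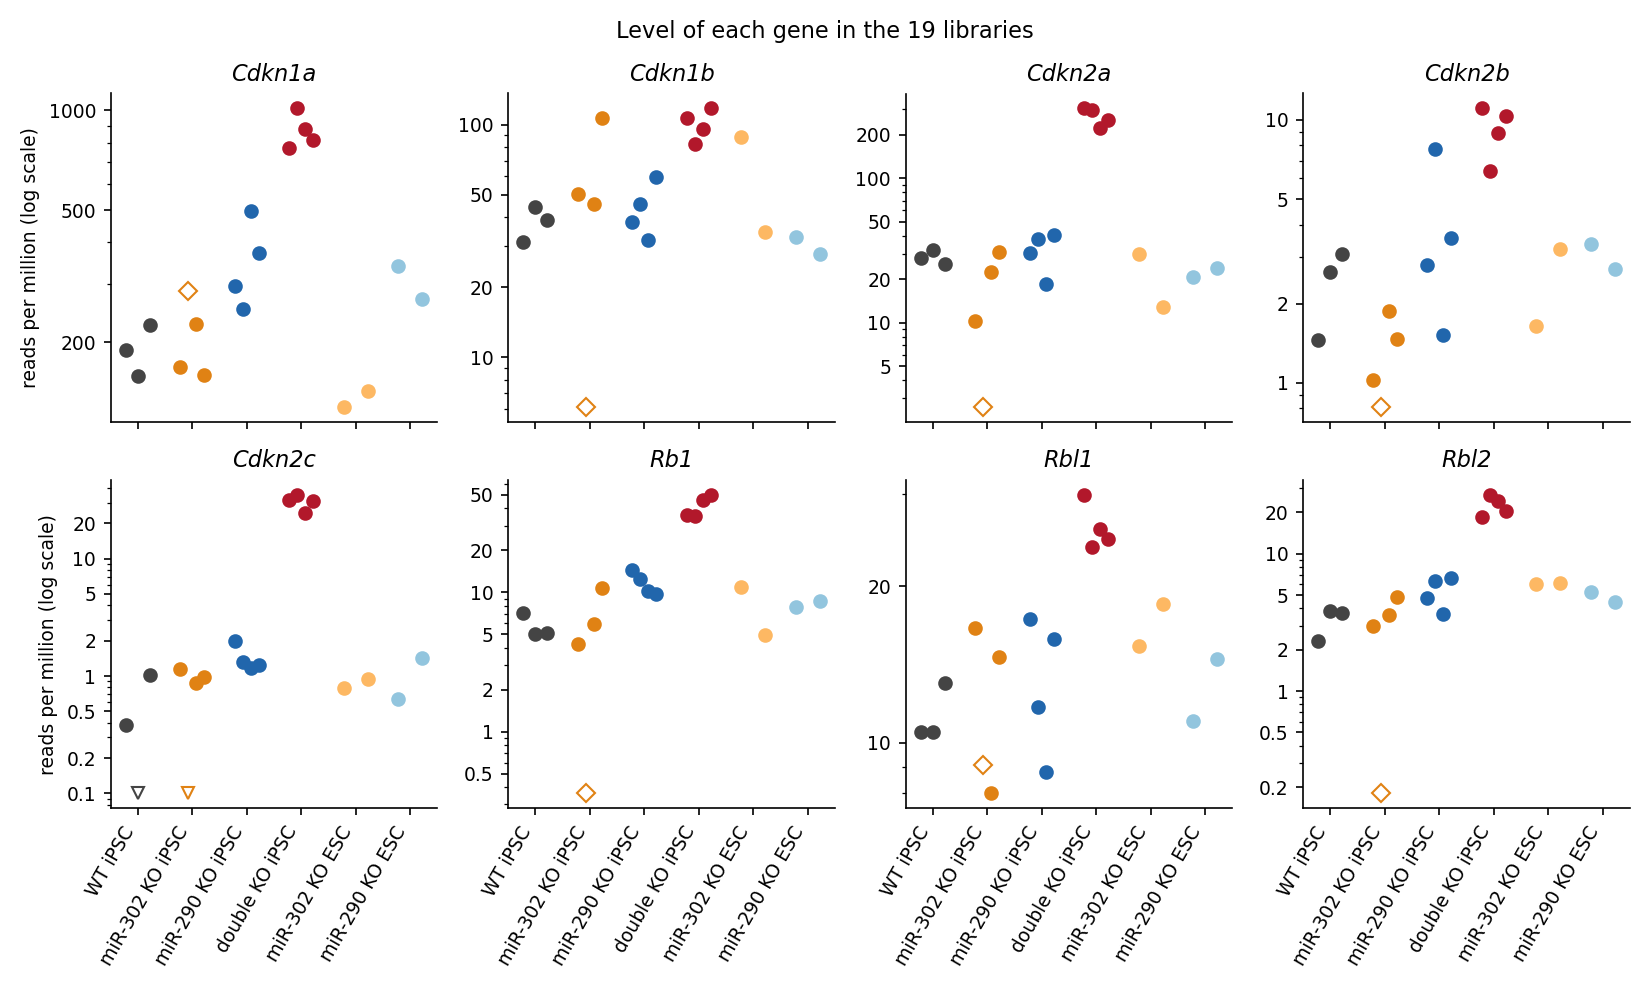
Each panel plots 1 gene in CPM on a log axis, with 1 point per library and the libraries grouped by genotype and cell type. Open diamonds mark colony 1 library 2 of the miR-302KO iPSC, and open triangles, drawn at 0.1, mark libraries with 0 reads; for Cdkn2c this includes that same library. Apart from Cdkn1b and Cdkn2b, the 4 double KO libraries lie above all others.

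Among the Cip/Kip inhibitors, Cdkn1a, which encodes p21, was measured with the most reads, at least 2089 in each library. The WT libraries had 190.0, 158 and 226 CPM. The double KO libraries had 772 and 1014 CPM in colony 1 and 879.7 and 816 CPM in colony 2, all above the highest WT library. The means were 191 ± 33.98 CPM (SD, n = 3) and 870.3 ± 31.6 CPM (SD, n = 2 colonies). The log2 fold change was 2.19 ± 0.22 (SE; adjusted p = 6.57e-06). Cdkn1a was also the member with the most distinct levels in the single KO groups. The miR-290KO iPSC had 296 and 251 CPM in colony 1 and 498 and 372 CPM in colony 2, so that all 4 libraries lay above all 3 WT libraries. The miR-290KO ESC had 339 and 269.9 CPM. The miR-302KO iPSC had 168 and 286 CPM in colony 1 and 226 and 159 CPM in colony 2, overlapping WT, and the miR-302KO ESC had the lowest levels of all, 127 and 142 CPM.

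Cdkn1b, which encodes p27, changed least clearly. WT libraries had 31.3, 44.3 and 38.9 CPM, and double KO libraries had 107 and 82.7 CPM in colony 1 and 95.4 and 117 CPM in colony 2. The means were 38.2 ± 6.53 CPM (SD, n = 3) and 101 ± 8.09 CPM (SD, n = 2). The log2 fold change against WT was 1.4 ± 0.48 (SE; adjusted p = 0.0291). This call did not hold in 6 of 24 alternative analyses, among them those without either double KO colony (adjusted p = 0.085 without colony 1 and 0.117 without colony 2) and without WT library 1 (0.0814) or 3 (0.0569). Of the other 15 libraries, 13 lay below the lowest double KO library. A miR-302KO iPSC library, colony 2 library 2, had 107 CPM, and a miR-302KO ESC library had 88.5 CPM. The other miR-302KO iPSC libraries had 50.4 and 6.11 CPM in colony 1 and 45.7 CPM in colony 2. The miR-290KO iPSC had 38.0 and 45.7 CPM in colony 1 and 32.0 and 59.7 CPM in colony 2, in and around the WT range.

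The INK4 genes are neighbours or relatives of each other. Cdkn2a (chr4:89274471-89294653, minus strand) and Cdkn2b (chr4:89306299-89311039, minus strand) lie 11.6 kb apart in GRCm38, and Cdkn2c lies elsewhere on the same chromosome (chr4:109660876-109667189, minus strand). Cdkn2a encodes both p16 and the p53 activator p19Arf, whose transcripts share their last exons, so that reads from the 3' end do not separate them. WT libraries had 28.05, 31.9 and 25.6 CPM of Cdkn2a. Double KO libraries had 303 and 295 CPM in colony 1 and 221 and 253 CPM in colony 2. The lowest of these was 5.45 times the highest of the other 15 libraries. The means were 28.5 ± 3.17 CPM (SD, n = 3) and 268 ± 44.2 CPM (SD, n = 2), and the log2 fold change was 3.22 ± 0.52 (SE; adjusted p = 0.000282). The miR-290KO iPSC, with 30.2 and 37.9 CPM in colony 1 and 18.5 and 40.6 CPM in colony 2, lay around WT.

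Cdkn2b was measured at a low depth, with 27 to 50 reads per WT library and 90 to 175 per double KO library. WT libraries had 1.45, 2.63 and 3.09 CPM. Double KO libraries had 11.05 and 6.41 CPM in colony 1 and 8.89 and 10.3 CPM in colony 2. The log2 fold change was 1.91 ± 0.52 (SE; adjusted p = 0.00899; 0.0575 without double KO colony 2). A library of miR-290KO iPSC colony 1, at 7.75 CPM, overlapped the double KO range, while the other 3 of that group had between 1.52 and 3.57 CPM.

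Cdkn2c showed the widest difference. WT libraries held 7, 0 and 15 reads (0.38, 0.00 and 1.03 CPM). Double KO libraries held 505 and 490 reads in colony 1 and 429 and 515 in colony 2, that is 31.9, 34.9, 24.6 and 31.0 CPM. The lowest double KO library was 12.4 times the highest of the other 15, which was a miR-290KO iPSC library at 1.99 CPM. The log2 fold change was 6.11 ± 0.78 (SE; adjusted p = 4.75e-05) on a scale with a small prior added, which pulls in the change of so weakly expressed a gene. It was 5.29 without WT library 2, which had 0 reads, 6.82 without WT library 3 and 4.48 on the scale of log2 of CPM plus 1, so the size of the change is poorly fixed while its direction and call held in all 24 alternatives. The 4 miR-290KO iPSC libraries, between 1.16 and 1.99 CPM, all lay above the 3 WT libraries, but WT rested on 22 reads in all.

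The pocket proteins bind E2F factors. Rb1 encodes the retinoblastoma protein, which binds the activating E2Fs, while Rbl1 (p107) and Rbl2 (p130) bind E2f4 and E2f5 in the repressive DREAM complex. Rb1 had 7.11, 5.0 and 5.09 CPM in WT libraries. In double KO it had 36.1 and 35.4 CPM in colony 1 and 45.8 and 50.1 CPM in colony 2. The means were 5.73 ± 1.19 CPM (SD, n = 3) and 41.9 ± 8.62 CPM (SD, n = 2), and the log2 fold change was 2.84 ± 0.57 (SE; adjusted p = 0.00131). The miR-290KO iPSC stood between, with 14.4 and 12.4 CPM in colony 1 and 10.2 and 9.79 CPM in colony 2, all above WT. In the miR-302KO iPSC Rb1 had 4.29 and 0.36 CPM in colony 1 and 5.91 and 10.8 CPM in colony 2; the value of 0.36 CPM stood for 4 reads in the library that stands apart.

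Rbl1 changed least in size among the 8. WT libraries had 10.5, 10.5 and 13.1 CPM. Double KO libraries had 29.9 and 23.7 CPM in colony 1 and 25.75 and 24.65 CPM in colony 2, and the lowest of them was 1.29 times the highest of the other 15. The log2 fold change was 1.19 ± 0.24 (SE; adjusted p = 0.00129). Rbl2 had 2.32, 3.84 and 3.71 CPM in WT and 18.4 and 26.8 CPM in colony 1 and 24.03 and 20.3 CPM in colony 2 of the double KO, and the log2 fold change was 2.73 ± 0.51 (SE; adjusted p = 0.000766). In all other groups Rbl2 stayed between 2.97 and 6.68 CPM except for 0.18 CPM, or 2 reads, in miR-302KO iPSC colony 1 library 2. Exons of Rb1 overlap genes on the opposite strand (Lpar6 and Rcbtb2), as do those of Rbl2 (Aktip and Gm45464) and Cdkn1a (AC167363.2). Whether counting used the strand is not given in the sources used here, and without it their reads could not be told apart.

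Loss of miR-290 alone was compared with WT to ask what 1 cluster does while the other remains. No member was called by limma in miR-290KO iPSC (0 of 8; 1.57% of all genes were called), and 2 of 8 had an unadjusted p under 0.05, beside 16.7% of all genes. The 8 fold changes were all above 0, with a median of 0.59 on the log2 scale beside 0.14 over all genes. Cdkn1a had a log2 fold change of 0.86 (95% interval 0.38 to 1.33; adjusted p = 0.0745). It was called with sample weights (0.88, adjusted p = 0.0473) and without colony 1 (1.18, adjusted p = 0.0493), and its adjusted p ranged from 0.0473 to 0.577 over all alternatives. In the authors' deposited table for miR-290KO against WT, Cdkn1a was the only one of the 8 listed. Its log2 fold change there was 0.77, with an adjusted p of 0.0425 by the authors' model. That table lists 1429 genes, beside 12778 in the matrix, and holds only genes with adjusted p of at most 0.05. Cdkn2c had 1.80 (95% interval 0.10 to 3.50; adjusted p = 0.271) and Rb1 had 1.01 (95% interval -0.22 to 2.24; adjusted p = 0.401). The intervals of Cdkn1b, Cdkn2a, Cdkn2b, Rbl1 and Rbl2 all included 0, with upper bounds between 0.71 for Rbl1 and 1.77 for Rbl2, and changes up to those bounds lie within the error of these data.

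Loss of miR-302 alone gave no call among the members either (0 of 8 by limma; 0.0313% of all genes were called, and 1 of 8 members had an unadjusted p under 0.05, beside 15.1% of all genes). The median log2 fold change was -0.39, beside -0.11 over all genes, and 3 of 8 were above 0. Cdkn1a had 0.11 (95% interval -0.37 to 0.59; adjusted p = 0.83). Cdkn2a had -1.26 (95% interval -2.39 to -0.14; adjusted p = 0.302), Rb1 -0.74 and Rbl2 -0.69. The library that stands apart set the sign of several values: without colony 1 library 2, Rb1 had 0.05, Rbl2 0.13, Cdkn1b 0.65 and Cdkn1a -0.08, each of the opposite sign. Cdkn2a kept its sign without it, at -0.78 (adjusted p = 0.577), and the other library of colony 1 had 10.35 CPM of Cdkn2a, below all 3 WT libraries. With colony 1 as the only colony, Cdkn2a (-2.41), Rb1 (-1.96) and Rbl2 (-1.75) were called lower, where 9.96% of all genes were called in either direction. With colony 2 as the only colony Rb1 (0.49) and Rbl2 (0.36) lay above 0 and were not called. None of the 8 was listed in the authors' deposited table for miR-302KO against WT, which holds 43 genes.

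The 2 single KO groups were also compared directly in iPSC. No member was called between miR-290KO and miR-302KO (0 of 8 by limma; 2.25% of all genes were called, and 5 of 8 members had an unadjusted p under 0.05, beside 18.5% of all genes). All 8 log2 differences were above 0, with a median of 1.26 beside 0.23 over all genes. Cdkn1a differed by 0.75 (95% interval 0.22 to 1.27; adjusted p = 0.125; 0.0414 with each library as a sample). Rb1 differed by 1.75 (95% interval 0.40 to 3.10; adjusted p = 0.159). Without miR-302KO colony 2, 3 members were called, namely Cdkn2a (2.51), Rb1 (2.97) and Rbl2 (2.42), beside 10% of all genes.

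**Figure D3:**
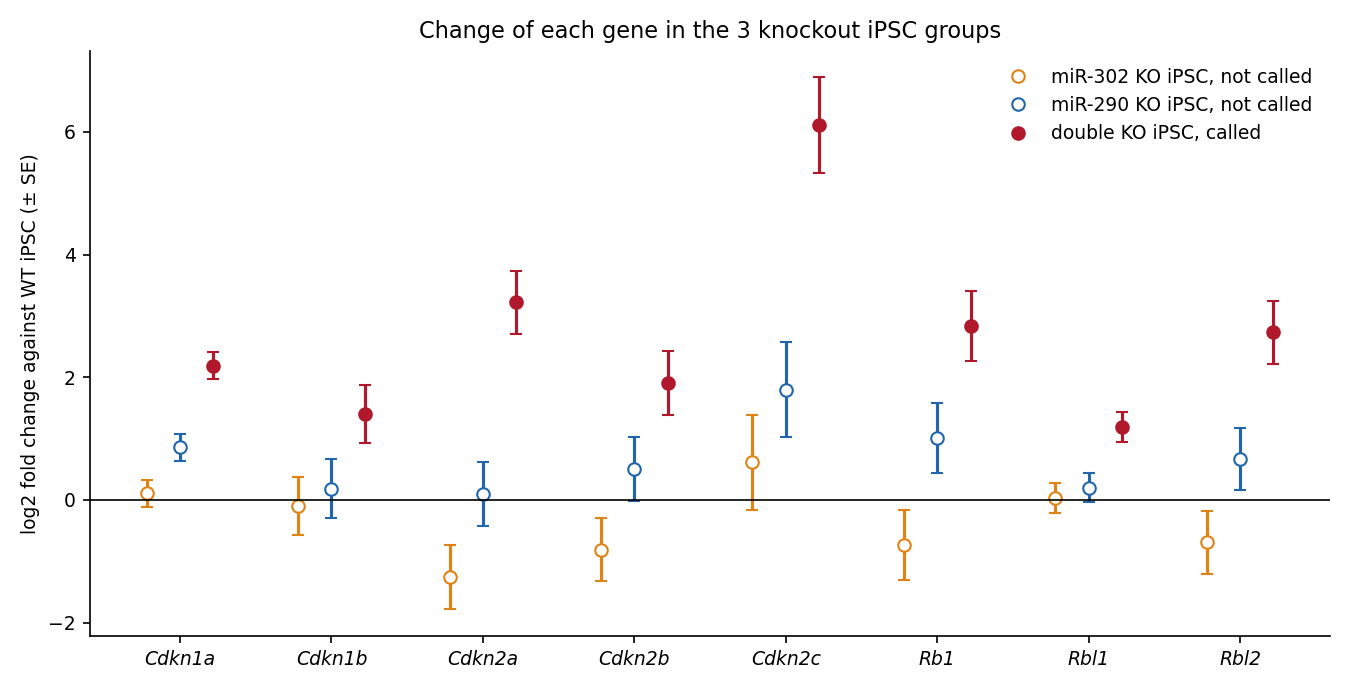
Points give the log2 fold change of each gene against WT iPSC in the miR-302KO, miR-290KO and double KO iPSC, with bars of 1 SE, filled where the adjusted p was under 0.05. All 8 double KO points are filled, from 1.19 in Rbl1 to 6.11 in Cdkn2c, and none of the single KO points is.

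What the loss of a cluster adds when the other is already absent was read from double KO against each single KO. These comparisons share the double KO libraries with each other and with the comparison against WT, so their values are given side by side and not as independent evidence. Against miR-302KO iPSC, all 8 genes were called higher (28.5% of all genes), from 1.16 in Rbl1 to 5.5 in Cdkn2c on the log2 scale. Without miR-302KO colony 1 library 2, 7 were called, beside 48% of all genes in either direction, with Cdkn1b at 0.75 (adjusted p = 0.098). Without that library Cdkn2c had 4.71, Rb1 2.79 and Rbl2 2.61, in place of 5.5, 3.58 and 3.43. With miR-302KO colony 2 alone Cdkn2a had 3.33 and with colony 1 alone 5.63, in place of 4.48. Against miR-290KO iPSC, 6 of 8 were called higher (15.6% of all genes). These were Cdkn1a (1.34, adjusted p = 0.00118), Cdkn2a (3.12, 0.00122), Cdkn2c (4.31, 0.00222), Rb1 (1.83, 0.0394), Rbl1 (0.99, 0.0113) and Rbl2 (2.06, 0.0129). Cdkn1b (1.22, adjusted p = 0.095) and Cdkn2b (1.4, adjusted p = 0.0795) were not called. The call for Rb1 was lost in 9 of 24 alternatives (adjusted p up to 0.173), that for Rbl2 in 4 (up to 0.0686) and that for Rbl1 in 2 (up to 0.076). Without double KO colony 1, 3 members were called, beside 21% of all genes in either direction, and without miR-290KO colony 2 there were also 3, beside 22.3%.

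The difference between the double KO change and the sum of the single KO changes was tested as 1 contrast. For all 8 genes the double KO change exceeded the sum, and in 5 of 8 the difference was called (12.0% of all genes were called in this direction). For Cdkn2a the single KO changes summed to -1.16 on the log2 scale and the double KO change was 3.22, a difference of 4.38 ± 0.77 (SE; adjusted p = 0.0017). For Cdkn2c they summed to 2.41 against 6.11, a difference of 3.70 ± 1.16 (SE; adjusted p = 0.0369). For Rbl2 they summed to -0.02 against 2.73, a difference of 2.75 ± 0.75 (SE; adjusted p = 0.0199). For Rb1 they summed to 0.27 against 2.84, a difference of 2.57 ± 0.84 (SE; adjusted p = 0.0435). Cdkn1a had the smallest called difference, 1.23 ± 0.33 (SE; adjusted p = 0.0183), from a sum of 0.96 and a double KO change of 2.19. Cdkn2b (2.21, adjusted p = 0.0555), Rbl1 (0.96, adjusted p = 0.0659) and Cdkn1b (1.33, adjusted p = 0.197) were not called. The number called depended on single colonies: it was 1 without double KO colony 1, where 15.3% of all genes were called in either direction, and 2 without miR-290KO colony 2, where 14.4% were. It was 3 without double KO colony 2, miR-290KO colony 1, miR-302KO colony 1 or WT library 3, beside 19.7%, 19.2%, 15.2% and 20.2% of all genes in that order. Without miR-302KO iPSC colony 1 library 2 the difference was 2.90 for Cdkn2c (adjusted p = 0.0732), 1.78 for Rb1 (0.0354) and 1.93 for Rbl2 (0.0116). The call for Rb1 was lost in 12 of 24 alternatives, as was that for Cdkn2c, while that for Cdkn2a held in all 24. Calls were also lost for Cdkn1a in 3 and for Rbl2 in 2. Of the members not called, Cdkn2b gained a call in 7 of 23 alternatives, Cdkn1b in 1 of 24 and Rbl1 in 0 of 24.

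**Figure D4:**
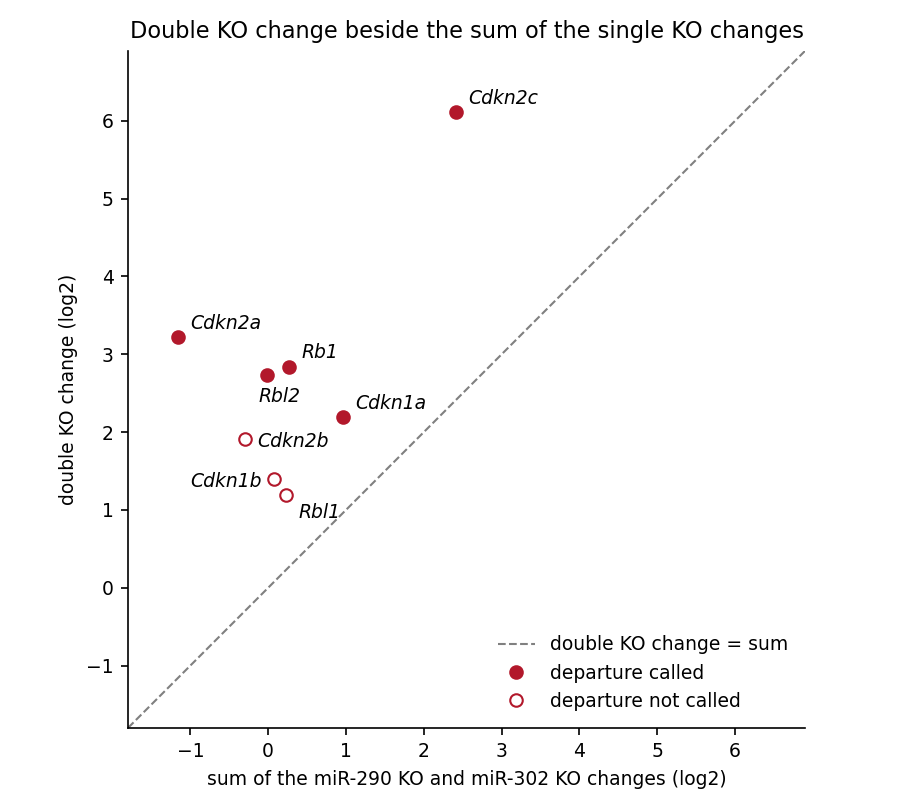
The double KO change of each gene against WT iPSC (vertical axis, log2) is plotted beside the sum of the miR-290KO and miR-302KO changes (horizontal axis, log2), and the dashed line marks equality. All 8 genes lie above the line, and the 5 filled points are those whose distance from it was called.

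Reprogrammed and embryo-derived cells of the same genotype were compared for the single KO groups. No member was called between miR-290KO iPSC and miR-290KO ESC (0 of 8 by limma; 0% of all genes were called, and 0 of 8 members had an unadjusted p under 0.05, beside 3.9% of all genes). The 8 log2 differences lay between 0.04 and 0.50, and that of Cdkn1a was 0.18 (95% interval -0.35 to 0.70). Between miR-302KO iPSC and miR-302KO ESC no member was called either (0 of 8 by limma; 0% of all genes), and 2 of 8 had an unadjusted p under 0.05, beside 10.5% of all genes. Rbl2 was lower in the iPSC by 1.58 as a log2 estimate (-1.58, 95% interval -2.78 to -0.38; adjusted p = 0.434) and Cdkn1a had 0.60 (95% interval 0.07 to 1.12; adjusted p = 0.449). Without miR-302KO iPSC colony 2, which leaves only the colony with the library that stands apart, 4 members were called lower, beside 7.47% of all genes called in either direction. Between the ESC groups no member was called (0 of 8 by limma; 0.587% of all genes were called, and 1 of 8 members had an unadjusted p under 0.05, beside 12.8% of all genes). Cdkn1a was the exception in size: its 2 miR-290KO ESC libraries lay above both miR-302KO ESC libraries, with a log2 difference of 1.17 (95% interval 0.64 to 1.69; adjusted p = 0.0555). It was called in 3 of 24 alternatives, with an adjusted p of 0.0364 without miR-302KO iPSC colony 1 library 2.

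Ordered by mean level, double KO came first for all 8 genes. Samples here are colony means, or single libraries where a group had no colonies. Those of double KO did not overlap those of the next group for any of the 8 genes. By single library, double KO and the next group did overlap for Cdkn1b and Cdkn2b. The share of all genes with such an order of samples was not computed. By single library, 19.9% of all genes with recovered reads had every double KO library above every other. For Cdkn1a the order was double KO, miR-290KO iPSC, miR-290KO ESC, miR-302KO iPSC, WT and miR-302KO ESC. The samples of the neighbours miR-290KO iPSC and ESC overlapped, as did those of miR-302KO iPSC and WT, while miR-290KO ESC and miR-302KO iPSC did not overlap, nor did WT and miR-302KO ESC. For Cdkn1b, Rbl1 and Rbl2 the group next to double KO was miR-302KO ESC. The other 4 genes, Cdkn2a, Cdkn2b, Cdkn2c and Rb1, had miR-290KO iPSC in that place. For Cdkn1b all neighbours below double KO overlapped.

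The levels of the 8 genes varied together over the 13 samples, and less so without the double KO. Over 28 pairs of members, Pearson's r of the log2 values ranged from 0.42 to 0.94 with a median of 0.81. Without the 2 double KO colonies the range was -0.34 to 0.86 and the median 0.38. Rb1 and Cdkn2a kept the highest value, 0.86, and Rb1 and Rbl2 had 0.82. Cdkn1a had no such partner: its values with the other 7 lay between -0.34 and 0.39 in these 11 samples. These correlations are descriptions over samples that share groups, and the low values of miR-302KO iPSC colony 1 library 2 enter those of Rb1, Rbl2, Cdkn2a and Cdkn1b together.

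The genes whose log2 values were most like each member over the 13 samples were taken from 9666 genes with a mean of at least 5 CPM. For Cdkn1a they were Galnt10 (r = 0.983), Lamb2 (0.966) and 1810043G02Rik (0.964), and without the double KO colonies Galnt10 still had 0.94. For Cdkn1b they were Zdhhc15 (0.945), Slc25a14 (0.922) and Wrnip1 (0.913). For Cdkn2a they were Ggh (0.981), Cd81 (0.977) and Cnih1 (0.973), and for Cdkn2b they were Nras (0.97), Tapt1 (0.962) and Klhl9 (0.952). For Cdkn2c they were Wasl (0.97), Arl2bp (0.967) and Jup (0.966). For Rb1 they included Apobec1 (0.974) and Lrrc42 (0.969). They were, for Rbl1, Gm608 (0.967), Tmcc1 (0.952) and Slain2 (0.95), and for Rbl2 Acadsb (0.968), Tbccd1 (0.967) and Btbd1 (0.965). No gene named here appeared for more than 1 member.

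The changes of members with and without a seed match are set side by side here as a description. The medians by match were not adjusted for 3' UTR length, and the part of the matches in the changes was not tested. In double KO against WT, Cdkn1a, Rbl1 and Rbl2 had log2 fold changes of 2.19, 1.19 and 2.73, and the 5 members without a match had values from 1.4 in Cdkn1b to 6.11 in Cdkn2c. Over all genes with an annotated 3' UTR, the median was 0.41 with a match, 0.60 with an 8mer and 0.10 with no match. In miR-290KO against WT the same medians were 0.24, 0.29 and 0.11, and the members with a match had 0.86 (Cdkn1a), 0.20 (Rbl1) and 0.67 (Rbl2). The 5 members without a match had values from 0.10 in Cdkn2a to 1.01 in Rb1 and 1.80 in Cdkn2c. In miR-302KO against WT the medians were -0.09, -0.08 and -0.12, and the 3 members with a match had 0.11, 0.03 and -0.69. The 5 without a match had values from -1.26 in Cdkn2a to 0.61 in Cdkn2c.

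Since the members rose together, their promoters (250 bases before to 50 after the start, RefSeq, GRCm38.p6) were searched on both strands for the E2F words TTTCCCGC, TTTCGCGC, TTTGCCGC and TTTGGCGC, which are known from promoters that E2F factors bind. The table held 10 promoters of 7 members; Rb1 had no entry. A word was found in 1 of 2 promoters of Cdkn2a, 99 bases before the start, and in that of Rbl1, 18 bases before the start. Of 32851 promoters of that length, 2.3% held such a word. The stretches upstream of the start, with the word in capitals, are given for reference.
Cdkn2a, chr4:89294685-89294744, minus strand: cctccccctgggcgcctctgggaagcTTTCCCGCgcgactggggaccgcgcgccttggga
Rbl1, chr2:157204535-157204578, minus strand: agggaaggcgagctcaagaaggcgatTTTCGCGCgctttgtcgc

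Other genes of the pathway moved in both directions. Among 10 cyclins and kinases of the G1-S transition, 2 rose and 4 fell in double KO against WT, with a median log2 fold change of -0.21, beside 27.4% and 21.5% of all genes called higher and lower. Ccnd2, a D-type cyclin, rose from 5.71 ± 2.17 CPM (SD, n = 3) to 4057 ± 536 CPM (SD, n = 2), with 9.50 ± 0.34 (SE) as its log2 fold change (adjusted p = 4.91e-10). Ccne2 rose by 1.87 (adjusted p = 6.77e-05), while Ccne1, the other cyclin E, fell by 1.79 (adjusted p = 9.92e-05). Ccnd3, Cdk6 and Cdc25a, the phosphatase that activates Cdk2, also fell, and Cdk2 (-0.32), Cdk4 (-0.11), Ccna2 (0.04) and Ccnd1 (0.58) were not called. Both of the risen cyclins also rose in miR-290KO against WT by limma, Ccnd2 by 3.31 (adjusted p = 0.00221) and Ccne2 by 1.21 (adjusted p = 0.0361). Of all genes, 1.57% were called in that comparison.

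Among 16 E2F and DREAM genes, 3 rose, 3 fell and 10 were not called in double KO against WT, with a median of 0.21. Of all genes, 27.4% were called higher and 21.5% lower. E2f2 rose by 1.54 (adjusted p = 0.00756), and the partners of Rbl1 and Rbl2 fell, E2f4 by 1.39 (adjusted p = 0.000862) and E2f5 by 0.89 (adjusted p = 0.0101). E2f7 and Tfdp1 rose by 0.81 and 0.73, Rbbp4 fell by 0.53, and the DREAM subunits Lin9, Lin37, Lin52 and Lin54 were not called. Of 7 genes of brake turnover and relatives, 3 rose and 1 fell, beside the same shares of all genes. The INK4 gene Cdkn2d (p19Ink4d) rose by 1.39 (adjusted p = 0.0111), Skp2, the ubiquitin ligase subunit that marks p27 for degradation, rose by 0.97 (adjusted p = 0.00724) and Fbxw7, which marks cyclin E, rose by 0.71 (adjusted p = 0.0248). The Cip/Kip gene Cdkn1c (p57) fell by 2.79 (adjusted p = 0.00612), so that not all CDK inhibitors rose.

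Of 10 genes of the p53 list, 6 rose, none fell and 4 were not called in double KO against WT, with a median of 1.4. Of all genes, 27.4% were called higher and 21.5% lower. Cdkn1a is itself a textbook p53 target. Phlda3 rose by 2.83 (adjusted p = 1.32e-06), Ccng1 by 2.34 (adjusted p = 1.88e-06) and Bax by 1.78 (adjusted p = 0.0025), whereas Trp53 (-0.45) and Mdm2 (0.28) were not called. In miR-290KO against WT none of the 10 was called by limma, beside 1.57% of all genes. Of the 3 genes named above, Phlda3 had 0.21, Ccng1 -0.01 and Bax 1.04 (adjusted p = 0.208). Among 7 genes known to repress the Cdkn2a locus, 3 rose, 3 fell and 1 was not called in double KO against WT, beside 27.4% and 21.5% of all genes called higher and lower. The Polycomb subunit Cbx7 fell from 201 ± 27.4 CPM (SD, n = 3) to 0.32 ± 0.11 CPM (SD, n = 2), with -8.88 ± 0.39 (SE) as its log2 fold change (adjusted p = 3.42e-09). Tbx3 fell by 6.23 (adjusted p = 4.65e-06) and Eed by 1.66 (adjusted p = 0.000529). Id1 rose by 4.63 (adjusted p = 2.38e-06), Bmi1 by 3.39 (adjusted p = 1.63e-06) and Ezh2 by 0.84 (adjusted p = 0.0077). In miR-290KO against WT, Id1 was the only 1 of the 7 called by limma (2.74, adjusted p = 0.00897), beside 1.57% of all genes. In double KO against WT, each of these lists was compared in the same samples in which all 8 pluripotency markers fell.

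**Figure D5:**
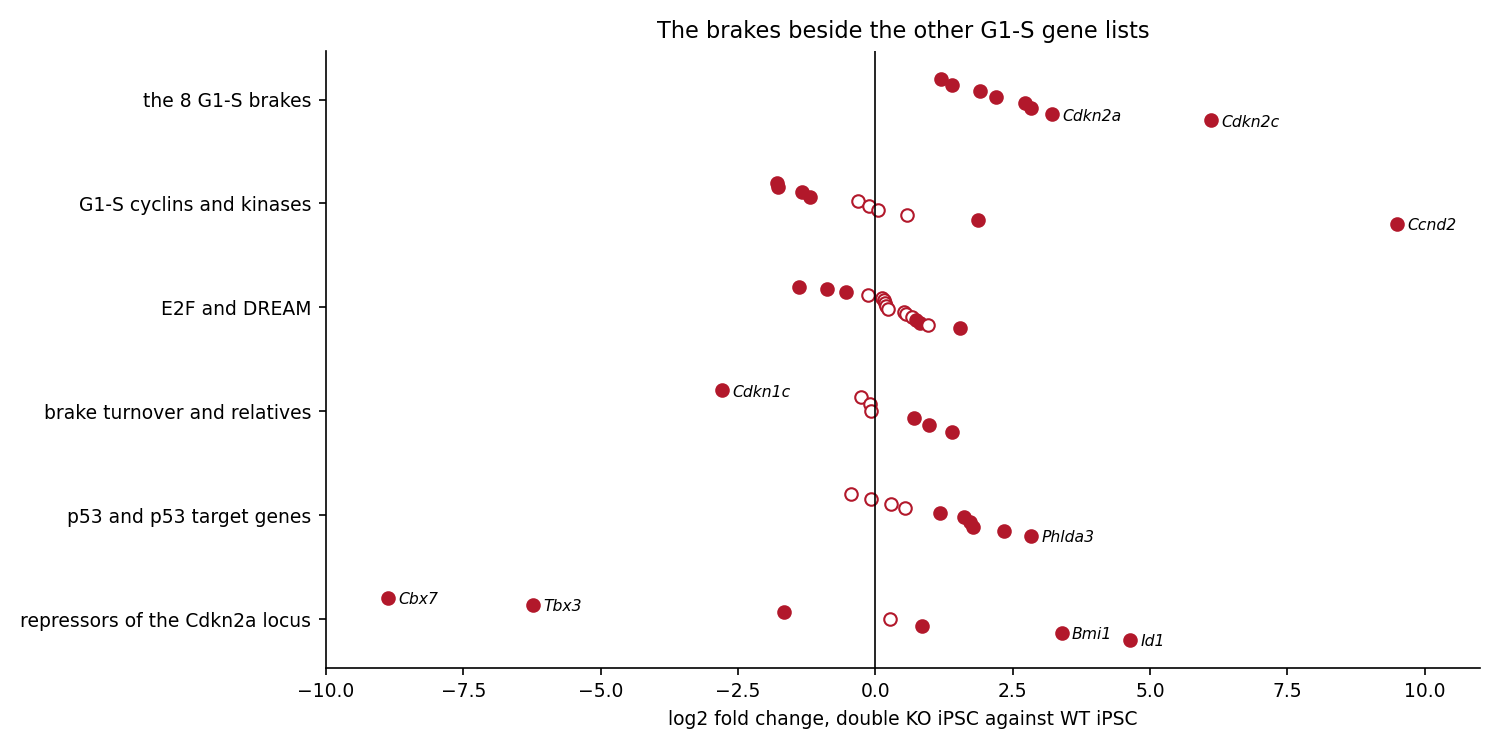
Each point is 1 gene, placed by its log2 fold change in double KO iPSC against WT iPSC and grouped by list, filled where the adjusted p was under 0.05. The 8 brakes all lie to the right of 0, the p53 list has 6 filled points to the right and none to the left, and the other lists have filled points on both sides, with Ccnd2 at 9.50 and Cbx7 at -8.88.

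The authors' deposited table for double KO against WT, which lists 8672 genes, holds all 8 members with positive log2 fold changes. They range from 0.91 for Rbl1 and 1.1 for Cdkn1b through 1.90 for Cdkn1a and 2.93 for Cdkn2a to 5.84 for Cdkn2c. For each of the 8 the authors' value was below the limma value given above, which was 2.19 for Cdkn1a and 1.19 for Rbl1. Median-of-ratios scaling also lowered all 8, to 2.05 for Cdkn1a and 1.04 for Rbl1. The part of the scaling in this difference was not tested. The authors' values come from the same libraries under another model and are not independent of those above.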

How the data were processed

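The authors deposited 1 matrix of log2 values and 3 tables of their own comparisons. Per the submitters' processing notes, Trim Galore 0.66, STAR, Salmon 1.4.0, FastQC 0.11.9, MultiQC, limma and DESeq2 1.34.0 were used with build mm10; their roles are not given in the sources used here. Per the file headers, the authors' tables hold log2 fold changes with standard errors, a mean signal per gene (over all samples of the comparison), the score of each test, and raw and adjusted p-values.

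The deposited log2 values behave as CPM to which a prior was added before taking logs: 1 constant per gene turned 95.8% of genes (12239 of 12778) into whole reads, with 99.66% of their values whole within 0.02 of a read. CPM are recovered reads over a library size proportional to the prior, and leave out the 539 genes without recovered reads. In the matrix 6 columns belonged to no sample and were not used.

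All genes were tested with limma 3.58.1 (R 4.3.3, trended spread) on the deposited log2 values. Libraries from the same colony entered as their mean, which left 13 samples of 6 groups in 1 fit with 7 residual degrees of freedom. The threshold for a call was 0.05 after Benjamini-Hochberg adjustment across all 12778 genes. The script was tested on simulated data. All 8 members are named throughout; of 5 companion lists the text names the 3 called genes with the largest change, and others chosen after their values were seen, and likeness is by the 3 highest correlations, of which 1 gene is not reported here. The members and lists were chosen with earlier results of these data known. In all, 24 alternatives were tried; their effect is given at the end. Whether libraries of a colony came from separate cultures is not stated, and the precision of every test is set by 2 or 3 samples per group.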

Additional observations from a re-analysis of the deposited data

Results flagged for a closer look

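Cdkn2c in the 4 miR-302KO iPSC libraries had 1 library far from the others. Colony 1 library 2 held 0 reads of it, against 17 to 20 in the other 3, and the gap to its nearest neighbour made up 0.89 of the range on the log2 scale. About 1 in 20 groups of 4 independent, normally distributed values would show a gap large enough to be flagged by chance. These libraries are pairs from colonies and the flagged one lies at the floor of 0 reads, so that rate may not hold here. The gap was looked for in every member and every group of 4 libraries.

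For 5 members the change in double KO differed from the sum of the single KO changes in the test of that difference (log2): by 1.23 for Cdkn1a, 4.38 for Cdkn2a, 3.70 for Cdkn2c, 2.57 for Rb1 and 2.75 for Rbl2. The adjusted p was 0.0183, 0.0017, 0.0369, 0.0435 and 0.0199 in that order, by limma. Of all genes, 12.0% were called in this direction. The calls for Cdkn2c and Rb1 were each lost in 12 of 24 alternatives, that for Cdkn1a in 3 and that for Rbl2 in 2. In the double KO libraries the summed level of 8 pluripotency markers was 53.7 to 97.4 CPM against 2596.4 CPM or more in the other libraries, and the part of this in the differences was not tested.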

How the results depend on the processing

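Of 1910 fold changes recomputed, 1777 kept their direction and their side of the threshold, 57 lost and 31 gained a call and 45 changed sign; no called value changed sign. All 8 members kept a positive change in double KO against WT, and between 6 and 8 were called there when 1 sample was left out. Leaving out 1 sample gave 0 to 1 calls for miR-290KO against WT, 0 to 3 for miR-302KO against WT, 3 to 7 for double KO against miR-290KO, 0 to 3 between the single KO iPSC groups, 1 to 7 for the departure from the sum and 0 to 4 for miR-302KO iPSC against ESC. Across these fits the share of all genes called moved as well, so the counts alone do not set the members apart from all genes. Leaving out a WT library left no group with a lone sample. The shares in either direction were then 41.7% to 44.6% for double KO against WT and 0.36% to 0.642% for miR-290KO against WT. They were 0.0235% for miR-302KO against WT and 30.2% to 31.1% for double KO against miR-290KO. Between the single KO iPSC groups they were 1.6% to 1.82%, and for the departure from the sum 17.8% to 20.2%. No gene was called for miR-302KO iPSC against ESC. Sample weights gave 1 call for miR-290KO against WT, beside 3.02% of all genes. Each library as a sample gave 1 between the single KO iPSC groups, beside 8.3% of all genes. For the departure from the sum, 3 were called with only the groups compared, beside 21.7% of all genes in either direction. Between the ESC groups, 1 was called with log2 of CPM plus 1, with log2 of CPM plus 0.1 and without miR-302KO iPSC colony 1 library 2. Of all genes, 0.825%, 0.662% and 1.01% were called there, in that order.

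Replicate numbers did not pair the samples: over 15 pairs of groups the correlation of same-numbered deviations ran from -0.27 to 0.18. With the replicate number as a block, 2 members departed from the sum, beside 17.7% of all genes called in either direction. Cdkn1a, Cdkn2c and Rb1 lost that call, with adjusted p of 0.0577, 0.0847 and 0.0856. Cdkn1b was then not called against WT (1.42, adjusted p = 0.0721) or against miR-302KO (1.5, 0.058), nor Rb1 in double KO against miR-290KO (1.83, 0.0699). The block changed no other call.

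Without miR-302KO iPSC colony 1 library 2, values changed sign in miR-302KO against WT (Cdkn1a -0.08, Cdkn1b 0.65, Rb1 0.05, Rbl2 0.13), between the single KO iPSC groups (Cdkn1b -0.47, Rbl1 -0.05) and in miR-302KO iPSC against ESC (Cdkn1b 0.10, Cdkn2c 0.22). Without the library of fewest reads they did so in miR-290KO against WT (Cdkn1b -0.05, Cdkn2a -0.18, Rbl1 -0.01), between the single KO groups (Rbl1 -0.04) and in miR-290KO iPSC against ESC (Cdkn2b -0.16, Rbl1 -0.17, Rbl2 -0.12). Median-of-ratios scaling gave -0.04 both for Cdkn2a in miR-290KO against WT and for Rbl1 between the single KO groups. Leaving out 1 sample gave these ranges where the sign changed. In miR-290KO against WT, Cdkn2a ran from -0.05 to 0.25. In miR-302KO against WT, Cdkn1a ran from -0.02 to 0.23, Cdkn1b from -1.09 to 0.89, Cdkn2c from -0.21 to 1.31, Rb1 from -1.96 to 0.49, Rbl1 from -0.06 to 0.13 and Rbl2 from -1.75 to 0.36. Between the single KO iPSC groups, Cdkn1b ran from -0.71 to 1.27. In miR-290KO iPSC against ESC, Cdkn1a ran from -0.15 to 0.51, Cdkn2b from -0.35 to 0.60, Cdkn2c from -0.02 to 0.98, Rbl1 from -0.16 to 0.23 and Rbl2 from -0.02 to 0.21. In miR-302KO iPSC against ESC, Cdkn1b ran from -1.64 to 0.34, Cdkn2a from -1.89 to 0.41, Cdkn2c from -1.24 to 0.08 and Rb1 from -2.33 to 0.12. Between the ESC groups, Cdkn2a ran from -0.44 to 0.77, Cdkn2b from -0.09 to 0.82, Cdkn2c from -0.37 to 0.63 and Rb1 from -0.39 to 0.71. The cause was not tested.

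Where a colony is left out, the lone one is assumed to vary like the other groups. With 0 to 44 reads per library outside double KO, changes of Cdkn2c in the single KO groups were at the limit of this depth.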
